A study of Homo sapiens with 6 samples.

Results

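The genes of eIF2 regulation were followed in the HCT116 cell line, which derives from a human colorectal cancer. They are the kinase genes EIF2AK1, EIF2AK2, EIF2AK3 and EIF2AK4, the eIF2 subunit genes EIF2S1, EIF2S2 and EIF2S3, the separate initiation factor gene EIF2A, and the phosphatase subunit genes PPP1R15A and PPP1R15B. These 10 of the 26255 gene symbols in the files were chosen by name for their known function, by a rule that uses no measured value, although earlier results of these data were known, and all 10 had a mean of at least 1 FPKM (fragments per kilobase of transcript, scaled to the number of mapped reads) over the libraries. Poly(A)-selected RNA-seq libraries of 3 groups, with 2 libraries each, were compared: parent HCT116 cells, and HCT116 cells given siLINC01534-1 or siLINC01534-2, siRNAs against the long noncoding RNA LINC01534. The parent cells were not described as transfected, so that transfection and silencing cannot be told apart, and the time of collection after transfection was not given in the sources used here. All groups are the same cell line, and both siRNAs were compared with the same 2 parent libraries. The methods of the study speak of 3 cultures, whereas the labels hold 2 libraries a group and do not say whether these came from separate cultures. The p-values therefore measure the spread between these libraries, which may be technical.

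eIF2 is the GTP-binding factor that carries the initiator tRNA to the ribosome. Phosphorylation of its alpha subunit by any of the eIF2 kinases blocks its recycling by the exchange factor eIF2B, which lowers translation in general and favours a small set of mRNAs such as that of the transcription factor ATF4, a program called the integrated stress response. Protein phosphatase 1 (PP1), brought to eIF2α by PPP1R15A or PPP1R15B, removes the phosphate and closes the loop. The RNA levels reported here do not measure the phosphorylation itself.

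The serine that all of these kinases phosphorylate is encoded in exon 2 of EIF2S1. Codons 48 to 56, counted from the start methionine, lie on the plus strand at chr14:67831626-67831652 of GRCh37. The capitals mark the codon of that serine, which is codon 52 here and residue 51 in the usual numbering without the methionine.
EIF2S1: cttagtgaattaTCCagaaggcgtatc

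LINC01534, the targeted RNA, had 0.285 and 0.571 FPKM in the parent libraries and 0.660 and 0.551 in those of siLINC01534-2. Of the siLINC01534-1 libraries the first is listed at 0 and the second at 0.283. Both siLINC01534-1 libraries were thus under the parent libraries, but 0.283 was almost the same as the 0.285 of the first parent library. The siLINC01534-2 libraries were not under parent. Values this low rest on few reads, so that the order of the groups is uncertain. LINC01534 was under the mean of 1 FPKM needed for the main fit, so a difference was not tested. Group names here are those of the labels. The depth was not stated. The lowest values of genes with a single transcript, taken as 1 read, gave approximately 8600000 to 10200000 reads per library, and 16513 to 16903 genes had a value above 0. Of 6 epithelial markers, 5 had at least 1 FPKM in every library, and VIL1 had at most 0.0453. Of 7 markers of other cell types, 5 were under 1 FPKM in every library, among them PTPRC of leukocytes, PECAM1 of endothelium and COL1A2 of fibroblasts. The other 2, CD68 and COL1A1, reached 6.18 and 5.79 FPKM. The summed level of these 7 genes was 5.98 to 7.01 FPKM in parent, 8.93 to 9.28 with siLINC01534-1 and 9.96 to 10.5 with siLINC01534-2. That of the 6 epithelial markers was 3450 to 3515 FPKM in parent, 2918 to 2924 with siLINC01534-1 and 3327 to 3511 with siLINC01534-2. The first sum was higher with each siRNA and the second was lower with siLINC01534-1, and their part in the results was not tested. In bulk RNA, fewer cells of a kind and less RNA per cell cannot be told apart.

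PPP1R15A, EIF2AK3 and PPP1R15B were higher and EIF2AK1 was lower than in parent with each siRNA. PPP1R15A rose 3.02-fold with siLINC01534-1 and 3.11-fold with siLINC01534-2, and EIF2AK3 rose 2.03-fold and 1.86-fold. These are ratios of mean FPKM. EIF2A was lower with siLINC01534-1, EIF2AK4 with siLINC01534-2, and the other siRNA in each case left the gene within 3% of parent. No member other than PPP1R15A and EIF2AK3 differed by more than 1.5-fold in either comparison.

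The fit in limma used log2(FPKM + 1) of the 12203 genes with a mean of 1 FPKM or more, and Benjamini-Hochberg adjusted p-values under 0.05 were taken as past the threshold. Many genes passed it. Against parent, siLINC01534-1 gave 3 members higher and 4 lower, where 21.8% of all genes tested were higher and 24.5% lower. With siLINC01534-2, 4 members were higher and 2 lower, against 11.1% and 11.8% of all genes. Without either parent library, 3 of these 6 members were past the threshold. When the siRNAs were averaged, 4 members were higher and 4 lower, against 17.1% and 20.1%. Of these 8 members, 4 were left without either parent library, and 2, EIF2AK3 and PPP1R15A, when the siRNA libraries formed 1 group. The 4 members past the threshold in the same direction with each siRNA were EIF2AK1, EIF2AK3, PPP1R15A and PPP1R15B, and 13.5% of all genes met that criterion. With 2 libraries a group, separation is common: both siLINC01534-1 libraries lay on 1 side of both parent libraries for 10 of the 10 members and for 75.7% of all genes, and both siLINC01534-2 libraries for 9 members and for 64.9% of all genes. All 4 siRNA libraries were above both parent libraries for 5 members, against 19.0% of all genes, and below them for 3 members, against 19.3%. A ratio of mean FPKM of at least 2 was reached by 2 members with siLINC01534-1, against 2.84% of all genes, and by PPP1R15A with siLINC01534-2, against 1.88%. The median log2 fold change of the 10 members was 0.0035 with siLINC01534-1 and 0.028 with siLINC01534-2, beside 0.00031 and 0.0018 for all genes tested, so the members as a group did not move 1 way.

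**Figure D1:**
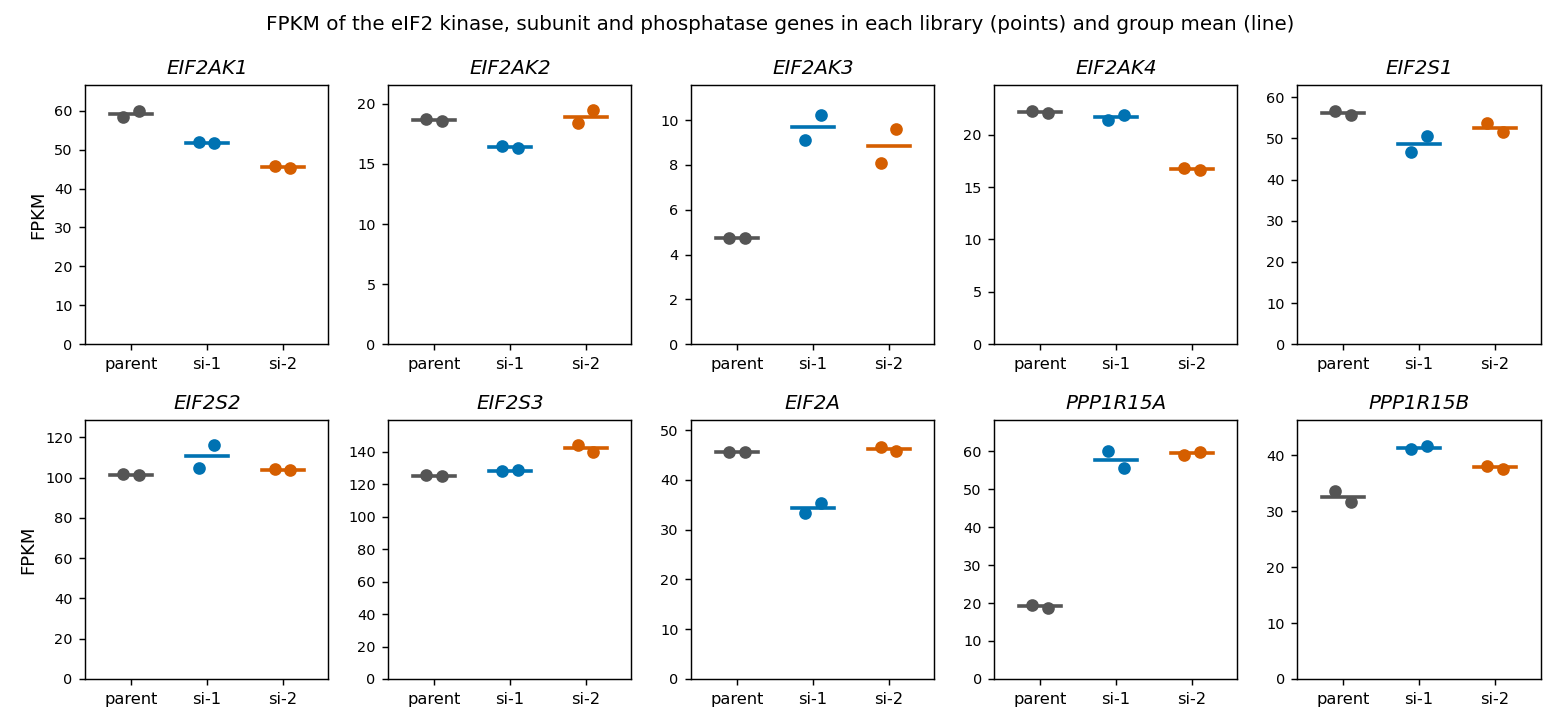
FPKM of each of the 10 genes (vertical axes, each from 0) in the 2 libraries of each group, with points for libraries and lines for group means; si-1 and si-2 are siLINC01534-1 and siLINC01534-2. PPP1R15A and EIF2AK3 had all 4 siRNA libraries far above parent, EIF2AK4 was low with siLINC01534-2 and EIF2A with siLINC01534-1.

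Among the kinases, EIF2AK3 encodes PERK, the transmembrane kinase of the endoplasmic reticulum (ER) that responds to unfolded protein. The gene lies on the minus strand at chr2:88856259-88991036. FPKM values were 4.76 and 4.75 in parent cells, 9.10 and 10.2 after siLINC01534-1 and 8.10 and 9.62 after siLINC01534-2. The parent libraries were almost identical, every siRNA library lay above them, and the ranges of the siRNAs overlapped each other. The log2 fold change was 0.89 (95% interval 0.65 to 1.13, adjusted p = 0.0013 from limma) with siLINC01534-1. With siLINC01534-2 it was 0.77 (0.53 to 1.01, adjusted p = 0.0063 from limma). Without either parent library the latter adjusted p was 0.052, and over all alternatives it ranged from 0.0043 to 0.052. The difference between the siRNAs was 0.12 with an interval from -0.12 to 0.36 (adjusted p = 0.37), so that a difference of either sign within these bounds is not excluded. EIF2AK3 had the lowest level of the members in every library, with approximately 204 to 439 reads, and counting alone then gives a coefficient of variation of up to 7%.

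EIF2AK1 encodes HRI, the kinase that senses heme deficiency and mitochondrial stress, and was the most abundant kinase mRNA of the 4 in every library. The gene lies on the minus strand at chr7:6061878-6098806. FPKM values of 58.3 and 59.8 in parent compared with 51.9 and 51.6 after siLINC01534-1 and with 45.8 and 45.2 after siLINC01534-2. The 3 groups did not overlap, with parent highest and siLINC01534-2 lowest. Levels fell by 0.19 on the log2 scale (standard error 0.034, adjusted p = 0.0079 from limma) with siLINC01534-1 and by 0.37 (standard error 0.034, adjusted p = 0.0028) with siLINC01534-2. The difference between the siRNAs, 0.18 (interval 0.097 to 0.27), was also past the threshold (adjusted p = 0.0099 from limma).

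EIF2AK4 encodes GCN2, which binds uncharged tRNA when amino acids are short, and lies on the plus strand at chr15:40226316-40327792. Parent libraries had 22.2 and 22.0 FPKM, those of siLINC01534-1 21.4 and 21.9, and those of siLINC01534-2 16.8 and 16.7. The siLINC01534-2 libraries stood below all others, whereas the siLINC01534-1 libraries were just under parent. The log2 fold change was -0.38 (interval -0.48 to -0.28, adjusted p = 0.0038 from limma) with siLINC01534-2 and -0.03 (interval -0.13 to 0.068, adjusted p = 0.56) with siLINC01534-1. The siRNAs differed by 0.35 (interval 0.25 to 0.45, adjusted p = 0.0019 from limma).

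EIF2AK2 encodes PKR, which is activated by double-stranded RNA and is induced by interferon. It lies on the minus strand at chr2:37326353-37384665. FPKM values were 18.7 and 18.6 in parent cells, 16.5 and 16.3 after siLINC01534-1 and 18.4 and 19.5 after siLINC01534-2. Only the siLINC01534-1 libraries were apart, below all others, and the siLINC01534-2 libraries enclosed the parent values. EIF2AK2 fell by 0.18 on the log2 scale with siLINC01534-1 (adjusted p = 0.026 from limma). That call was lost without any 1 of the parent or siLINC01534-1 libraries, with adjusted p from 0.082 to 0.10, and over all alternatives from 0.017 to 0.10. With siLINC01534-2 the log2 fold change was 0.02 (interval -0.094 to 0.13, adjusted p = 0.78). The siRNAs differed by -0.20 (adjusted p = 0.020 from limma), and this call was lost without either siLINC01534-1 library or without the second siLINC01534-2 library (adjusted p from 0.073 to 0.088).

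Taken within each library, the makeup of the kinase mRNAs shifted. EIF2AK3 made up 4.57% and 4.52% of the summed FPKM of the 4 kinase genes in parent cells, 9.19% and 10.2% after siLINC01534-1 and 9.08% and 10.6% after siLINC01534-2. EIF2AK1 made up 56.1% and 56.9% in parent and between 49.7% and 52.5% in the siRNA libraries. The sum itself was 104 and 105 FPKM in parent cells, 99.0 and 100.1 after siLINC01534-1 and 89.2 and 90.9 after siLINC01534-2. The groups did not overlap, and EIF2AK3 thus took a larger share of a sum that was lowest with siLINC01534-2.

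**Figure D2:**
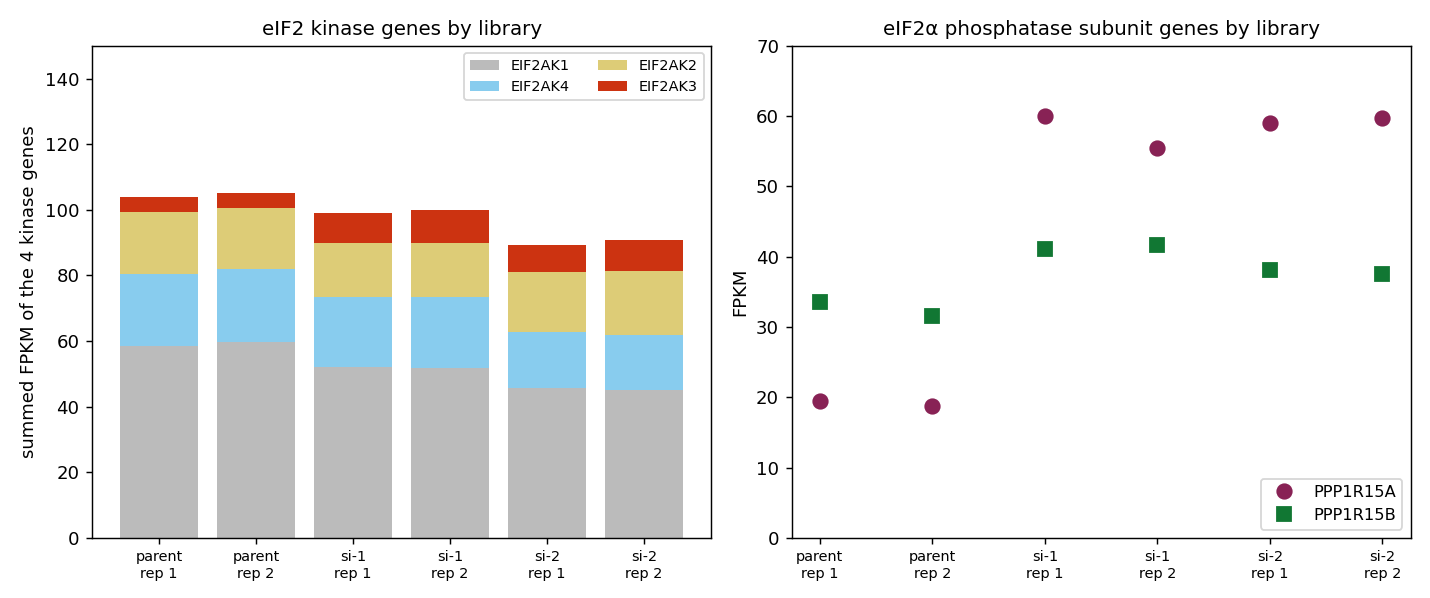
Left, FPKM of the 4 eIF2 kinase genes stacked by library (6 bars, vertical axis from 0); right, FPKM of PPP1R15A (circles) and PPP1R15B (squares) in the same libraries. The EIF2AK3 segment was larger in each siRNA library, and PPP1R15A was below PPP1R15B in parent and above it in all 4 siRNA libraries.

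Of the eIF2 subunits, EIF2S1 encodes the alpha subunit, the target of the kinases. It lies on the plus strand at chr14:67827045-67853233. In parent it had 56.8 and 55.8 FPKM, with siLINC01534-1 46.8 and 50.6, and with siLINC01534-2 53.7 and 51.5. All 4 siRNA libraries were below parent, and the siLINC01534-1 libraries were the lowest. EIF2S1 fell by 0.21 on the log2 scale with siLINC01534-1 (adjusted p = 0.020 from limma). The call was lost without either parent library or without the first siLINC01534-1 library, with adjusted p from 0.073 to 0.094, and over all alternatives the range was 0.018 to 0.094. With siLINC01534-2 the log2 fold change was -0.09 (interval -0.22 to 0.030, adjusted p = 0.23), and the difference between the siRNAs was -0.11 (interval -0.24 to 0.013, adjusted p = 0.13).

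EIF2S2 encodes the beta subunit, which contacts the GTPase activating factor eIF5 and eIF2B. The gene is at chr20:32676115-32700049, on the minus strand. FPKM values were 102 and 101 in parent cells, 105 and 116 after siLINC01534-1 and 104 and 104 after siLINC01534-2. All siRNA libraries were slightly above parent, and the second siLINC01534-1 library stood highest. EIF2S2 passed the threshold with neither siRNA. The log2 fold change was 0.12 (interval -0.012 to 0.25, adjusted p = 0.12) with siLINC01534-1, and 0.035 (interval -0.098 to 0.17, adjusted p = 0.67) with siLINC01534-2. Without the first siLINC01534-1 library the former was past the threshold, at 0.20 (adjusted p = 0.024 from limma), and over its alternatives the adjusted p ranged from 0.024 to 0.35.

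EIF2S3 encodes the gamma subunit, which binds GTP and the initiator tRNA, and had the highest level of the members in every library. It lies on the plus strand of the X chromosome at chrX:24073063-24096927. Parent libraries had 125 and 125 FPKM, those of siLINC01534-1 128 and 129, and those of siLINC01534-2 144 and 140.0. The siLINC01534-2 libraries were above all others. EIF2S3 rose by 0.18 on the log2 scale (interval 0.10 to 0.26, adjusted p = 0.016 from limma) with siLINC01534-2, and its log2 fold change with siLINC01534-1 was 0.037 (interval -0.042 to 0.12, adjusted p = 0.38). The call with siLINC01534-2 was lost without any 1 of the parent or siLINC01534-2 libraries, with adjusted p from 0.051 to 0.074, in a range over all alternatives of 0.015 to 0.074. The siRNAs differed by -0.14 (adjusted p = 0.017 from limma). That difference was not past the threshold without either siLINC01534-1 library or without the first siLINC01534-2 library, with adjusted p from 0.059 to 0.069, or by eBayes without trend (adjusted p = 0.050), in a range over all alternatives of 0.016 to 0.069.

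The subunits did not move together. The ratio of EIF2S3 to EIF2S1 was 2.21 and 2.24 in parent cells, 2.74 and 2.55 after siLINC01534-1 and 2.68 and 2.72 after siLINC01534-2. That of EIF2S2 to EIF2S1 was 1.79 and 1.81 in parent cells, 2.24 and 2.30 after siLINC01534-1 and 1.94 and 2.01 after siLINC01534-2. Both ratios were higher in all 4 siRNA libraries than in parent. The annotation holds 7 pseudogene copies of EIF2S2 and the copy EIF2S3B of EIF2S3, none of them analysed here, so that reads shared with these copies leave the levels of EIF2S2 and EIF2S3 uncertain.

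EIF2A encodes a monomeric initiation factor that is not part of eIF2 despite its name, and that can deliver initiator tRNA on some mRNAs. The gene is at chr3:150264465-150303803, on the plus strand. FPKM values were 45.6 and 45.6 in parent cells, 33.4 and 35.3 after siLINC01534-1 and 46.7 and 45.7 after siLINC01534-2. The siLINC01534-1 libraries were well below the rest, which lay close together. EIF2A fell by 0.40 on the log2 scale (interval -0.50 to -0.30, adjusted p = 0.0011 from limma) with siLINC01534-1. With siLINC01534-2 the log2 fold change was 0.019 (interval -0.084 to 0.12, adjusted p = 0.78). The difference between the siRNAs was -0.42 (interval -0.52 to -0.32, adjusted p = 0.0012 from limma), the largest of the 10 members, and it stayed past the threshold in every alternative tried.

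PPP1R15A encodes GADD34, the stress-induced subunit that directs PP1 to eIF2α, and is itself a target of the ATF4 and CHOP transcription factors. It lies on the plus strand at chr19:49375469-49379316. In parent the FPKM was 19.5 and 18.7. With siLINC01534-1 it was 60.0 and 55.5, and with siLINC01534-2 59.1 and 59.7. The 4 siRNA libraries lay close together and far above parent. The log2 fold change was 1.55 (interval 1.42 to 1.67, adjusted p = 5.4e-05 from limma) with siLINC01534-1 and 1.59 (interval 1.46 to 1.71, adjusted p = 1.5e-04) with siLINC01534-2. The difference between the siRNAs was -0.04 (interval -0.17 to 0.085, adjusted p = 0.55). PPP1R15A was past the threshold against parent in every alternative tried, with adjusted p of at most 0.005.

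PPP1R15B encodes CReP, the constitutively expressed counterpart of GADD34, and lies on the minus strand at chr1:204365620-204381015. It had 33.6 and 31.6 FPKM in parent cells, 41.1 and 41.6 after siLINC01534-1 and 38.1 and 37.6 after siLINC01534-2. The 3 groups did not overlap, with siLINC01534-1 highest and parent lowest. PPP1R15B rose by 0.34 on the log2 scale with siLINC01534-1 (interval 0.23 to 0.44, adjusted p = 0.0023 from limma). With siLINC01534-2 it rose by 0.21 (interval 0.10 to 0.32, adjusted p = 0.024 from limma), but that call was lost when any 1 of the 6 libraries was left out, with adjusted p from 0.051 to 0.098 (0.018 to 0.098 over all alternatives). The difference between the siRNAs was 0.13 (interval 0.018 to 0.23, adjusted p = 0.064).

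The balance of the phosphatase subunit mRNAs therefore turned. The ratio of PPP1R15A to PPP1R15B was 0.582 and 0.593 in the parent libraries, 1.46 and 1.33 with siLINC01534-1, and 1.55 and 1.59 with siLINC01534-2. The mRNA of the inducible subunit was thus the lower of the pair in parent and the higher in every siRNA library, and protein was not measured here. Their summed level was 53.1 and 50.3 FPKM in parent and lay between 97.1 and 101 FPKM in the siRNA libraries. PPP1R15A reached 4.10 and 3.94 times the level of EIF2AK3 in parent cells, 6.59 and 5.42 times after siLINC01534-1 and 7.29 and 6.21 times after siLINC01534-2.

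**Figure D3:**
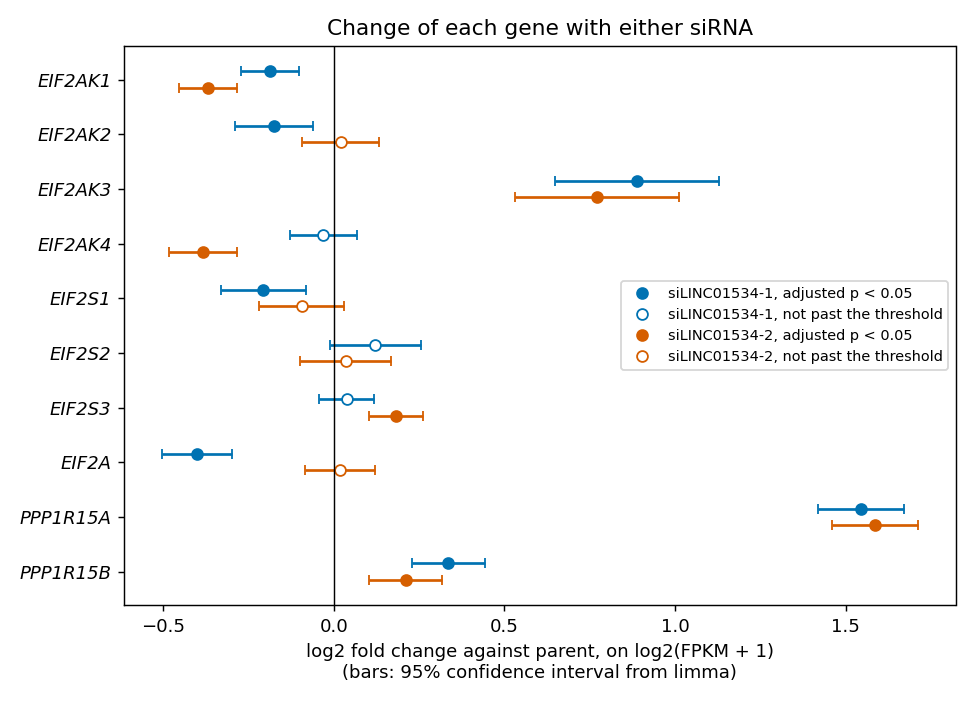
log2 fold change of each of the 10 genes against parent (horizontal axis, on log2(FPKM + 1)) for siLINC01534-1 and siLINC01534-2, with 95% confidence intervals from limma; filled points passed an adjusted p of 0.05. PPP1R15A, at 1.55 and 1.59, and EIF2AK3, at 0.89 and 0.77, stood apart from the other 8 genes, whose values lay between -0.40 and 0.34.

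FPKM are per length, so that levels can be ordered between genes. The order depends on an annotation that is not given, and reads of copies or of opposite-strand genes may affect it. Lack of overlap between neighbours covers only the spread of the libraries. In parent the order of the mean FPKM from the highest was EIF2S3, EIF2S2, EIF2AK1, EIF2S1, EIF2A, PPP1R15B, EIF2AK4, PPP1R15A, EIF2AK2 and EIF2AK3. Neighbours in this order did not overlap, except PPP1R15A and EIF2AK2, at means of 19.1 ± 0.571 and 18.7 ± 0.0844 (SD, n = 2). EIF2AK3 was lower than EIF2AK2 by a factor of 3.92. With each siRNA, PPP1R15A moved from rank 8 to rank 3, above EIF2AK1, EIF2S1 and EIF2A, without overlap with the next gene. With siLINC01534-2, EIF2A and EIF2AK1 overlapped, at 46.2 ± 0.692 and 45.5 ± 0.437 (SD, n = 2). Over the 6 libraries, the mean of EIF2S3 was above that of 94.4% of the genes tested, and the mean of EIF2AK3 was above that of 36.2%.

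The positions above are those of the GENCODE annotation lifted to GRCh37 (hg19). EIF2AK1 overlaps AIMP2 and ANKRD61 on the opposite strand, EIF2AK2 overlaps GPATCH11, EIF2S2 overlaps RALY and EIF2A overlaps SERP1. The libraries were strand-specific, but whether the strand was used in the counting was not given in the sources used here, so reads of these overlaps may not have been told apart. EIF2AK3, EIF2AK4, EIF2S1, EIF2S3, PPP1R15A and PPP1R15B overlap no gene on the opposite strand that has a row in the files.

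The promoters of the members were searched for elements of the factors that act below the kinases. The RefSeq promoters (GRCh38.p14, from 250 bases before to 50 bases after the start) were given for 8 of the 10 members and matched GRCh37 exactly. The motifs, searched on both strands, were the cAMP response element TGACGTCA, its shorter core TGACGT, which the former contains, the C/EBP-ATF composite TGATGCAA, which ATF4 and CHOP bind, and the interferon response core AANNGAAA. The windows below show those in the phosphatase subunit promoters and in EIF2AK2, because the first pair changed with both siRNAs and EIF2AK2 is the interferon-induced kinase. Capitals mark the motif, and the position counts the bases from the RefSeq start, with -1 just before it.
PPP1R15A, TGACGTCA at -58, chr19:49375611-49375636, plus strand: ctctcttcgTGACGTCAgcacgccgg
PPP1R15A, TGACGT at -152, chr19:49375517-49375540, plus strand: actccgccgTGACGTtgcaaaagc
PPP1R15B, TGACGT at -101, chr1:204381032-204381055, minus strand: ttttgcgagTGACGTtgggcggcg
PPP1R15B, TGATGCAA at -227, chr1:204381156-204381181, minus strand: cgccccggcTGATGCAAcctcacgct
EIF2AK2, AANNGAAA at -4, chr2:37384111-37384136, minus strand: ccaaggggaAAACGAAActgagaacc

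Both phosphatase subunit promoters thus held a TGACGT core, the one of PPP1R15A as the full palindrome. Of all 27305 promoters, 8.32% held TGACGT, 1.98% TGACGTCA, 0.923% TGATGCAA and 23.2% AANNGAAA. Among the 9009 promoters of genes tested here the shares were 12.2%, 3.46%, 0.444% and 15.5%. The promoter of EIF2A held AANNGAAA on the reverse strand, and those of EIF2AK3, EIF2AK4, EIF2S1 and EIF2S3 held none of the letters in this window. A match describes the sequence only, and says nothing of binding.

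The other genes of the pathway were taken from lists made by function. The counts that follow stand beside 21.8% higher and 24.5% lower of all genes tested with siLINC01534-1, and 11.1% and 11.8% with siLINC01534-2. Of 15 initiation partners of eIF2, which are the eIF2B subunits, eIF5 and the factors of start codon selection and tRNA delivery, 3 were higher and 6 lower with siLINC01534-1, and 2 were higher and 5 lower with siLINC01534-2. The median log2 fold change was -0.057 and -0.063. EIF1AX, which encodes the scanning factor eIF1A, had 55.8 and 53.4 FPKM in parent cells, 15.7 and 16.0 after siLINC01534-1 and 47.5 and 46.0 after siLINC01534-2. It fell by 1.72 on the log2 scale with siLINC01534-1 (adjusted p = 2.5e-05 from limma) and by 0.22 with siLINC01534-2 (adjusted p = 0.020). EIF1, which encodes the partner of eIF1A in start codon selection, rose by 0.61 (adjusted p = 2.2e-04 from limma) and 0.48 (adjusted p = 0.0018). EIF2B1, the alpha subunit gene of eIF2B, fell by 0.33 with siLINC01534-1 (adjusted p = 0.0043 from limma), and its value with siLINC01534-2 was -0.15 (adjusted p = 0.087). DENR, whose product recycles ribosomes with MCTS1, fell by 0.54 with siLINC01534-1 (adjusted p = 0.0019 from limma) and had a value of 0.0041 with siLINC01534-2 (adjusted p = 0.98).

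Of 8 regulators of the kinases, 3 were higher and 1 was lower with siLINC01534-1, and 2 were higher and 2 lower with siLINC01534-2, with median log2 fold changes of 0.17 and 0.10. In all, 46.3% of the genes tested passed the threshold with siLINC01534-1, so 4 of 8 is near that share. With siLINC01534-2, 22.85% of the genes tested passed it, and 4 of 8 is above that share, which was not tested. HSPA5, the ER chaperone BiP that holds PERK inactive, rose by 1.52 and 1.51 (adjusted p = 4.7e-05 and 1.5e-04 from limma). DNAJC3, the cochaperone p58IPK that inhibits PERK and PKR, had 14.1 and 13.8 FPKM in parent cells, 24.2 and 24.8 after siLINC01534-1 and 21.0 and 23.4 after siLINC01534-2. It rose by 0.77 and 0.63 on the log2 scale (adjusted p = 4.6e-04 and 0.0032 from limma). IMPACT, an inhibitor of GCN2, rose by 0.35 with siLINC01534-1 (adjusted p = 0.0058 from limma), and its value with siLINC01534-2 was 0.18 (adjusted p = 0.077). TARBP2, an inhibitor of PKR, fell by 0.56 with siLINC01534-1 (adjusted p = 0.0024 from limma), had a value of 0.11 with siLINC01534-2 (adjusted p = 0.31), and differed between the siRNAs by -0.67 (adjusted p = 0.0016).

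The genes of the PP1 catalytic subunits were examined beside PPP1R15A. With siLINC01534-1, 2 of the 3 genes were lower and PPP1CB was higher, where 46.3% of all genes passed the threshold. With siLINC01534-2, where 22.8% of all genes passed it, the adjusted p from limma was 0.15 for PPP1CA, 0.22 for PPP1CB and 0.15 for PPP1CC. PPP1CA had 162 and 166 FPKM in parent cells, 92.5 and 104 after siLINC01534-1 and 146 and 151 after siLINC01534-2. It fell by 0.74 on the log2 scale with siLINC01534-1 (adjusted p = 4.9e-04 from limma), and the siRNAs differed by -0.60 (adjusted p = 0.0012). PPP1CC fell by 0.27 with siLINC01534-1 (adjusted p = 0.0069 from limma), and its value with siLINC01534-2 was -0.11 (adjusted p = 0.15).

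Of 8 mRNAs that are favoured under eIF2α phosphorylation or are targets of the factors they encode, 7 were higher and 1, ATF5, was lower with siLINC01534-1, and 7 were higher with siLINC01534-2. The median log2 fold change was 1.38 and 1.26, beside 0.00031 and 0.0018 for all genes tested. ATF4 itself rose by 0.70 with siLINC01534-1 (adjusted p = 8.5e-05 from limma) but by only 0.13 with siLINC01534-2 (adjusted p = 0.034 from limma). The siRNAs differed by 0.58 for ATF4 (adjusted p = 2.1e-04 from limma). These 8 genes are known stress response genes, and stress response genes were already known to be higher in these libraries when the list was made, so their direction is not independent evidence. ATF3, a stress-induced transcription factor, had 11.9 and 13.0 FPKM in parent cells, 62.2 and 60.6 after siLINC01534-1 and 45.2 and 51.2 after siLINC01534-2, a rise of 2.22 and 1.87 on the log2 scale (adjusted p = 5.4e-05 and 2.6e-04 from limma). DDIT3, which encodes CHOP, rose by 1.97 and 2.13 (adjusted p = 8.5e-05 and 2.6e-04 from limma). CHAC1, an enzyme that degrades glutathione, rose by 1.39 and 1.44 (adjusted p = 7.2e-05 and 2.4e-04 from limma). SESN2, a sestrin that restrains mTORC1, rose by 1.47 and 1.22 (adjusted p = 1.3e-04 and 9.0e-04 from limma).

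Of 22 other initiation factor genes tested, 4 were higher and 11 lower with siLINC01534-1, and 1 was higher and 6 lower with siLINC01534-2. Of all genes tested, 21.8% were higher and 24.5% lower with siLINC01534-1, and 11.1% and 11.8% with siLINC01534-2. The counts of higher genes were near or below these shares and those of lower genes were above them, which was not tested. The median log2 fold change of the list was -0.11 and -0.054. EIF3C was listed at no more than 0.0650 FPKM and was not tested. Whether a value this low reflects the expression of the gene was not examined. EIF5A, the elongation and termination factor, had 1156 and 1197 FPKM in parent cells, 465 and 478 after siLINC01534-1 and 1078 and 1047 after siLINC01534-2. EIF5A and EIF4E, the cap-binding protein gene, fell by 1.32 and 1.24 on the log2 scale with siLINC01534-1 (adjusted p = 3.7e-05 and 7.8e-05 from limma). With siLINC01534-2, EIF5A fell by 0.15 (adjusted p = 0.040 from limma) and EIF4E had a value of -0.10 (adjusted p = 0.21). EIF4A1, the helicase gene, fell by 0.76 and 0.46 (adjusted p = 1.4e-04 and 0.0023 from limma), and EIF4H, which encodes its cofactor, by 0.37 and 0.66 (adjusted p = 0.0011 and 7.6e-04).

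**Figure D4:**
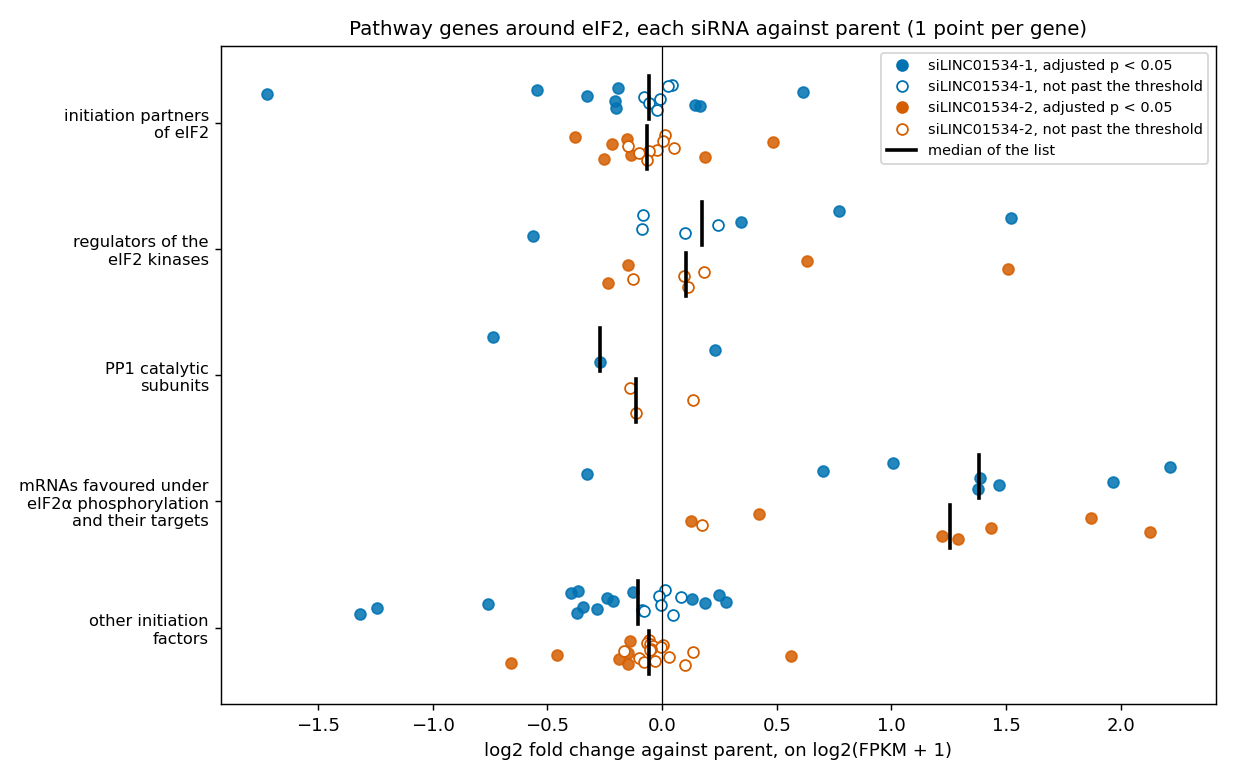
log2 fold change against parent (horizontal axis, on log2(FPKM + 1)) of every tested gene of the 5 pathway lists, with 1 point per gene and siRNA, filled where the adjusted p was under 0.05, and bars at the list medians. The mRNAs favoured under eIF2α phosphorylation and their targets had medians of 1.38 and 1.26, and the medians of the other 4 lists lay between -0.27 and 0.17.

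The siRNAs were also compared with each other. For siLINC01534-1 against siLINC01534-2, 2 members were higher (EIF2AK1 and EIF2AK4) and 3 lower (EIF2A, EIF2AK2 and EIF2S3), where 19.5% of all genes tested were higher and 22.3% lower. PPP1R15A and EIF2AK3, the members with the largest change against parent, were not among them.

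The genes whose pattern over the 6 libraries was most like that of EIF2AK3 and PPP1R15A were sought among 12202 genes. The measure was the root mean square difference of the log2 values, after the parent mean of each gene was taken off. For EIF2AK3 the most alike genes were GTPBP2 at 0.044, KLF6 at 0.060 and KDM5B at 0.066. Their log2 fold changes were 0.95, 0.83 and 0.88 with siLINC01534-1 and 0.76, 0.77 and 0.75 with siLINC01534-2. That these are close to those of EIF2AK3 follows from how the genes were chosen. For PPP1R15A they were HSPA5 at 0.062, TRIML2 at 0.071 and ISG20 at 0.073. ISG20 had a mean of 0.717 FPKM in parent, so that its log2 fold change, 1.55 with siLINC01534-1, understates its change. EIF2AK3 and PPP1R15A differed from each other by 0.61 on this measure, which also counts the size of the change. By closeness to PPP1R15A, EIF2AK3 had rank 110 of the 12202 genes, and by closeness to EIF2AK3, PPP1R15A had rank 3768.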

How the data were processed

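RNA of HCT116 cells was sequenced in 6 libraries. The authors prepared strand-specific poly(A) libraries, mapped single-end reads to hg19 with TopHat and deposited FPKM per gene symbol from Cuffnorm. The submitters' processing notes name TopHat2 2.0.13, Bowtie2 2.2.3, SAMtools 0.1.19 and Cufflinks 2.2.1. The annotation is not given in the sources used here, and the labels and methods name different extraction kits. Groups were taken from the labels. The members and lists were chosen with earlier results of these data known.

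log2(FPKM + 1) was fitted with limma 3.58.1 in R 4.3.3 (eBayes with trend, 1 mean per group, two-sided, Benjamini-Hochberg over 12203 genes with a mean of at least 1 FPKM). The pseudocount understates changes of low genes. Ratios are of mean FPKM without it. The script was tested on simulated data. Alternatives were pseudocounts of 0.1 and 5, other filters, median scaling, eBayes without trend, only the compared groups, a replicate block and each library left out. All members were named, as were up to 4 genes a list with the largest change in the mean of both siRNAs, and the 3 genes most like EIF2AK3 and PPP1R15A. ATF4 was named as well. The files carry no counts, so read numbers are estimates and cover counting error only. Positions came from GENCODE v44 lifted to GRCh37. Cell type markers were textbook genes.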

Additional observations from a re-analysis of the deposited data

Results flagged for a closer look

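The effect of siLINC01534-1 against parent differed from that of siLINC01534-2 for 5 members, by the limma test of the difference itself (siLINC01534-1 minus siLINC01534-2, threshold 0.05 for the adjusted p). The log2 difference was 0.18 for EIF2AK1, -0.20 for EIF2AK2, 0.35 for EIF2AK4, -0.14 for EIF2S3 and -0.42 for EIF2A. These are 5 of the 10 members, beside 41.8% of all genes tested, so the count is near the share of all genes. The calls of EIF2AK2 and EIF2S3 were lost when single libraries were left out. With groups of 2 libraries no single library could be tested as an outlier.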

How the results depend on the processing

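Of 560 values of members under alternatives, 502 kept their direction and their side of the threshold, 52 lost the threshold, 4 gained it and 2 changed sign. When the 4 siRNA libraries were taken as 1 group against parent, with their own difference left in the spread, 2 members (EIF2AK3 and PPP1R15A) were past the threshold instead of 8, beside 361 of 12203 genes. In fits that omit 1 library, the lone library of its group being assumed to vary like the others, the count was 4 to 7 for the mean of both siRNAs, lowest without either parent library, 5 to 7 of 7 for siLINC01534-1, 3 to 5 of 6 for siLINC01534-2, lowest without either parent library, and 3 to 5 of 5 for siLINC01534-1 against siLINC01534-2, lowest without the second siLINC01534-1 library. Except for siLINC01534-2 against parent, these counts include EIF2S2 where the first siLINC01534-1 library was left out. EIF2S2 was not among the main calls, so the counts are not all members kept from them. In the same left-out fits, the log2 fold change of EIF2AK2 with siLINC01534-2 ranged from -0.017 to 0.057, and the difference of PPP1R15A between the siRNAs from -0.096 to 0.015, neither past the threshold at any value. Rescaling to the same median moved the median of all genes by less than 0.02 and added PPP1R15B to the differences between the siRNAs (adjusted p = 0.044). Every group has a library 1 and a library 2. Deviations of same-numbered libraries had correlations of 0.11, 0.03 and -0.05. These cannot decide whether the libraries share a culture or batch, because such sharing may touch only part of the genes. With the replicate number as a block, 6, 7, 6 and 5 members passed for the averaged siRNAs, siLINC01534-1, siLINC01534-2 and the difference between them. Counts of reads were not given, so that depth limits EIF2AK3, the lowest member, most.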
